A study of Mus musculus with 16 samples.

Results

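Interferon response genes were followed in whole mouse hearts as a module of 36 listed genes, which code for transcription factors, nucleic acid sensors and antiviral effectors that cells switch on after sensing interferon. They were matched to array probes by gene symbol, and the brightest probe of a gene by its mean over all arrays stood for the gene. Of the 36 genes, 34 were matched and tested among 20055 genes in all. Mx1 and Mx2 were not analysed here. The hearts came from male C57BL/6 mice of 2 genotypes and 2 ages, with 1 single-colour Agilent array per heart and 4 arrays in each of 4 groups. All mice carried a floxed allele of the mineralocorticoid receptor gene, Nr3c2. The cardioMRKO mice also carried αMHC-Cre, a recombinase driven by a promoter active in cardiomyocytes, so that other heart cells keep the receptor. The controls, called MRflox in the labels, were littermates without Cre, so an effect of Cre itself and one of the missing receptor cannot be told apart. Hearts of each genotype were taken at the ages of 1 month and 2 months. A level is the log2 intensity of a gene minus the 75th percentile of its array, and a gene was called where its limma adjusted p was under 0.05 over all genes tested.

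Type I interferons act through the receptor chains Ifnar1 and Ifnar2 and the kinases Jak1 and Tyk2, which activate a complex that holds Stat2 and Irf9. That complex binds the interferon-stimulated response element (ISRE) in the promoters of its target genes, while type II interferon acts on the gamma-activated site (GAS). The products bind, tag or degrade viral RNA and proteins, and in tissue without infection the genes keep a low tonic level.

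The promoters of these genes are shown first because the motifs are a sequence property, found in part of the module, that the array values did not define. RefSeq promoter windows (GRCm38.p6, 250 bases before to 50 after the start) were at hand for 27 of the 36 genes. Oas2, Usp18, Dhx58, Iigp1, Rtp4, Parp14, Zbp1, Mx1 and Mx2 had no window. The ISRE core GAAANNGAAA, searched on both strands, was in the windows of 16 of the 27 genes (59.3%), against 3.99% of 27025 genes with a window. The GAS motif TTCNNNGAA was in 10 of the 27 (37.0%) against 9.55% of all, and its letters are the same on both strands. Matches within a window can overlap, as in Isg15, where 3 overlapping ISRE matches lie in a row. Below are ISRE matches of genes named in the results, each in the direction of its gene with 12 bases on either side and the match in capitals. On the opposite strand the ISRE core reads TTTCNNTTTC.
Isg15: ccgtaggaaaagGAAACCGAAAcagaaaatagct
Ifit1: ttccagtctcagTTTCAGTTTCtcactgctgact
Ifit3: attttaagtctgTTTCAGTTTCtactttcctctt
Gbp2: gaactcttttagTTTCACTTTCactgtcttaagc
Gbp3: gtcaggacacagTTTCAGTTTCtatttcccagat
Tgtp1: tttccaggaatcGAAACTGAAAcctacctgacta
The Isg15 stretch is chr4:156200869-156200902 on the minus strand, 72 bases before the start at the first capital. Ifit1 (chr19:34640792-34640825) and Ifit3 (chr19:34583395-34583428) lie on the plus strand of the same chromosome, 85 and 122 bases before their starts. Gbp2 (chr3:142620592-142620625) and Gbp3 (chr3:142559987-142560020) lie on the plus strand, 59 and 45 bases before their starts. The Tgtp1 stretch is chr11:48992302-48992335 on the minus strand, 77 bases before the start. Irf1, the first of the interferon regulatory factors, had a GAS match and no ISRE match.
Irf1: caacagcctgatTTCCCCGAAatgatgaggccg
Tgtp1: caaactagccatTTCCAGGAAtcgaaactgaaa
Igtp: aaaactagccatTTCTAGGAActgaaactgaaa
These GAS matches lie at chr11:53769912-53769944 (plus strand, 90 bases before the Irf1 start), chr11:48992314-48992346 (minus strand, 88 bases before the Tgtp1 start) and chr11:58199499-58199531 (plus strand, 45 bases before the Igtp start). In Tgtp1 and Igtp, which both code for interferon-inducible GTPases, an ISRE match follows the GAS match within the printed stretch. A match is a description of letters and was not tested for binding. Irf7, Irf9, Trim25, Oasl1, Oasl2, Ifi44 and Xaf1 held neither motif in their windows.

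Between 62.5% and 71.6% of probes per array stood well above background, the scaling percentile of the signal was 527.0 to 1091 intensity units, and no spot was saturated. Precision is limited by the 4 arrays per group. The 4 groups were hybridised on 4 separate slides, hence in all comparisons a slide effect and a group effect cannot be told apart. Nothing in the labels says that the mice came from separate litters, so p-values measure the spread between these samples. At 2 months, spike-in signal was low in 2 hearts, MRflox replicate 4 (−0.82) and cardioMRKO replicate 3 (−0.51), measured over 7 bright controls as their median log2 deviation from the mean of the arrays. The mean of 6 airway epithelium markers was −6.16 to 2.93 in MRflox and −5.88 to 2.05 in cardioMRKO at 1 month, and above 0 on all 8 arrays at 2 months. All 8 cardiomyocyte markers were above background on all 16 arrays, with list means of 7.22 to 7.80. Nr3c2, the targeted gene, differed between cardioMRKO and MRflox by −0.17 at 1 month (limma adjusted p = 0.988) and by −0.43 at 2 months (adjusted p = 0.122), where all 4 cardioMRKO arrays lay below all 4 MRflox arrays. In whole hearts, fewer cells of a type and less RNA per cell cannot be told apart.

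The genes were measurable in every group. Of the 34, 33 were well above background on all 16 arrays. The exception was Oas3, a synthetase of the oligoadenylates that activate RNase L, which was above background on 2 and 2 arrays at 1 month and on 3 and 4 arrays at 2 months, in MRflox and cardioMRKO respectively. The mean level over the 34 genes was 0.41 ± 0.42 (SD, n = 4) in MRflox and 0.30 ± 0.21 in cardioMRKO at 1 month. At 2 months it was 0.42 ± 0.21 in MRflox and 0.30 ± 0.15 in cardioMRKO, so the 4 group means lay closer to each other than the arrays within any group.

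**Figure D1:**
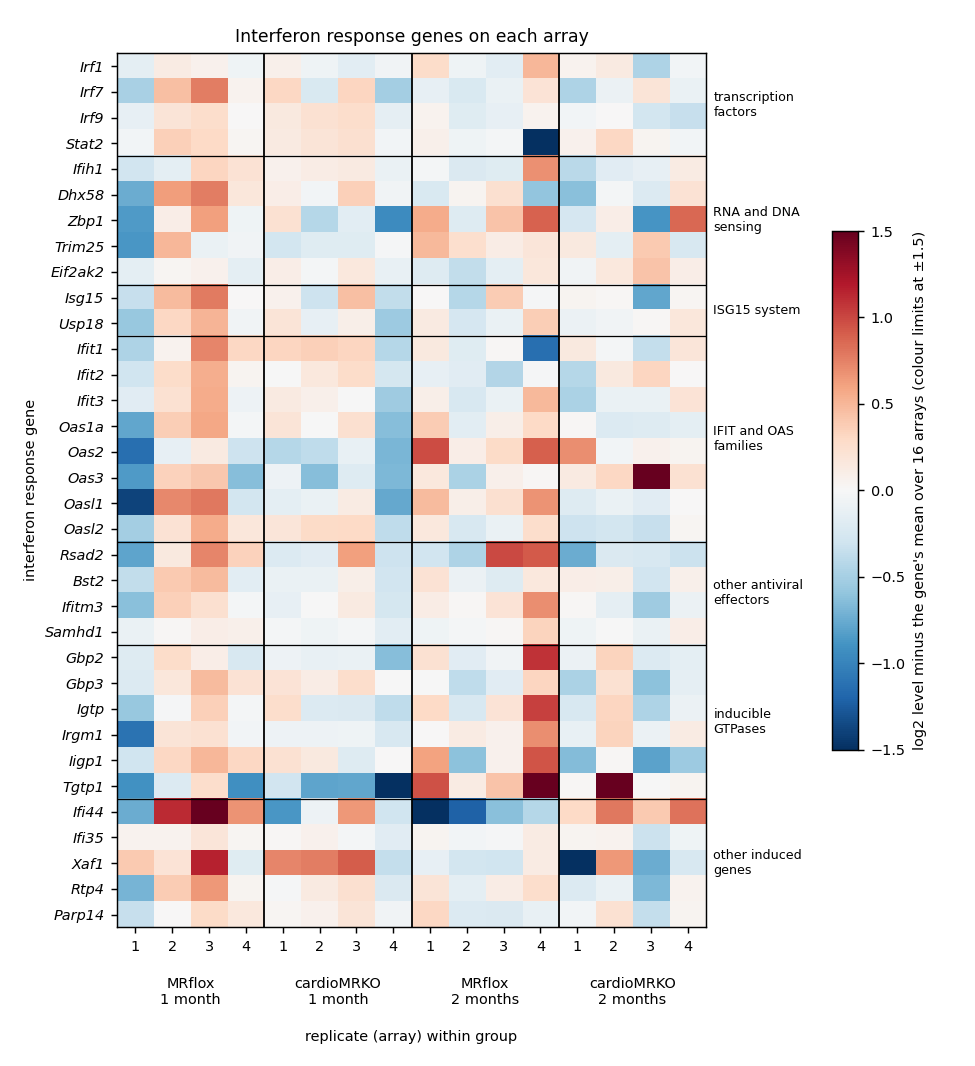
Levels of the 34 interferon response genes on the 16 arrays, as log2 level minus the gene's own mean over the 16 arrays (rows: genes by role, columns: replicates 1 to 4 of each group). MRflox replicate 1 at 1 month is blue and replicate 3 red down most of the rows, while the 4 blocks of columns look alike on average.

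The genes moved together from heart to heart. In MRflox at 1 month the mean over the genes was −0.13, 0.61, 0.83 and 0.35 in replicates 1 to 4, a range of 0.97 on the log2 scale. Replicate 1 held the lowest of the 4 values for 30 of the 34 genes, whereas it was lowest for 25.7% of all genes tested. Replicate 3 held the highest value for 29 of the 34, against 16.8% of all genes. In cardioMRKO at 1 month the mean was 0.39, 0.32, 0.48 and 0.00014, and replicate 4 was lowest for 30 of the 34 genes against 25.1% of all.

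At 2 months the order was less uniform. The mean was 0.47, 0.17, 0.39 and 0.67 in MRflox, where replicate 2 was lowest for 22 of the 34 genes (27.3% of all genes) and replicate 4 highest for 22, an array that was highest for 50.9% of all genes. In cardioMRKO it was 0.16, 0.48, 0.19 and 0.39, with replicate 3 lowest for 16 of the 34 (51.7% of all) and replicate 1 for 13 (15.2% of all).

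**Figure D2:**
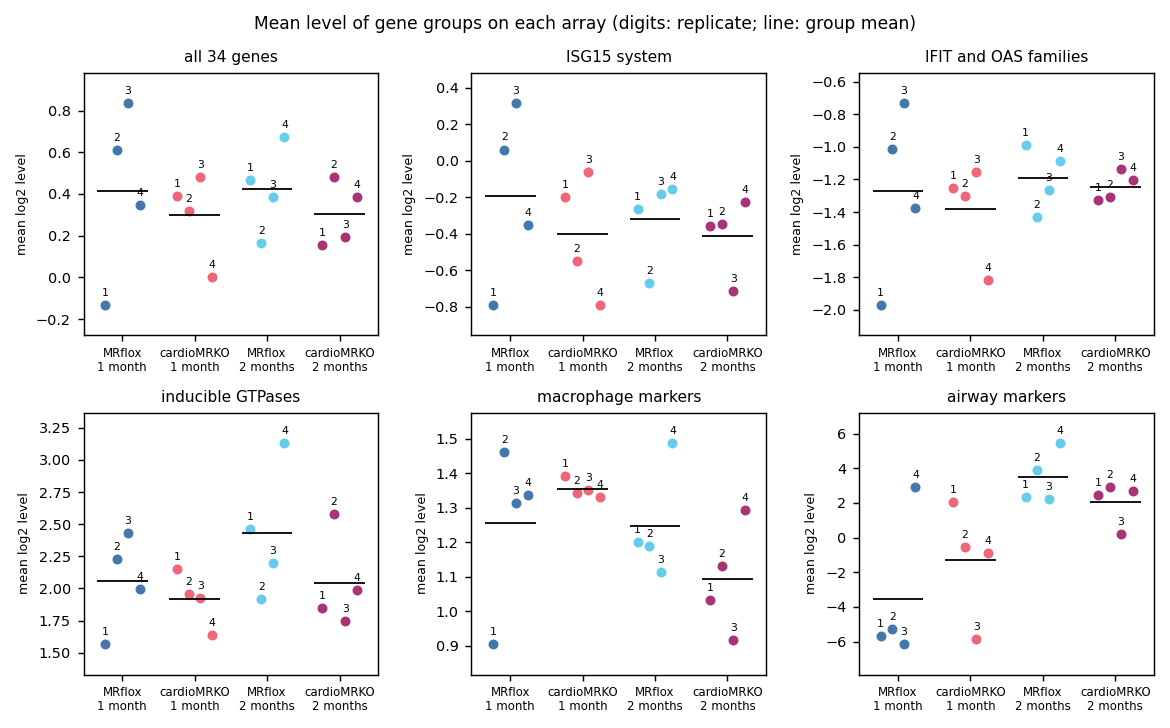
Mean log2 level on each array (points, digits give the replicate, lines the group mean of 4 arrays) of the 34 genes, of 3 of their roles, and of macrophage and airway marker lists, each panel with its own axis. Over the 34 genes the arrays of MRflox at 1 month span −0.13 to 0.83, more than the distance between any of the group means, which lie between 0.30 and 0.42.

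Usp18, the protease that removes Isg15 from proteins and dampens interferon signalling, followed the mean of the other genes most closely. Its level was −1.22, −0.33, −0.13 and −0.70 in MRflox and −0.45, −0.77, −0.56 and −1.19 in cardioMRKO at 1 month. At 2 months it was −0.51, −0.90, −0.74 and −0.27 in MRflox and −0.74, −0.70, −0.63 and −0.47 in cardioMRKO. The groups overlapped at both ages, and the low arrays were replicate 1 of MRflox and replicate 4 of cardioMRKO at 1 month.

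Likeness was measured as Pearson's r, over the 16 arrays, between a gene's deviation from its group mean and the mean deviation of the module without that gene. It is given as a description, since all points share the arrays, their scaling and their hybridisation. The r of Usp18 was 0.93, followed by Oasl1 (0.92), Oasl2 (0.91), Rtp4 (0.90) and Oas1a (0.88). Oasl1 and Oasl2 are relatives of the oligoadenylate synthetases, and Rtp4 is an interferon-induced receptor transporter. The median r was 0.71 over the 34 genes and 0.038 over all genes tested. It was above 0.5 for 27 of the 34 and for 5.86% of all genes. Without MRflox replicate 1 at 1 month, the array farthest from its group, the median was 0.64 and 25 of the 34 were above 0.5, against 6.12% of all genes. Oas2, Ifi44, Parp14 and Dhx58 were then below 0.5, and Ifi35 and Xaf1 above it.

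The genes least like the module, named after their values were seen, included Stat2, Ifit1 and Trim25. Stat2, the transcription factor of the type I complex, had the lowest r of −0.070. Its level was −0.70, −0.84, −0.80 and −2.31 in MRflox at 2 months and between −0.84 and −0.42 on the other arrays of all groups, so replicate 4 stood alone. Ifit1, which binds viral RNA caps and ends, was also lowest on that array, at −2.21 beside −0.94, −1.27 and −1.07, and had an r of 0.36. Trim25, the ubiquitin ligase that acts on the sensor Rigi, had an r of 0.32 that turned to −0.37 without MRflox replicate 1 at 1 month.

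**Figure D3:**
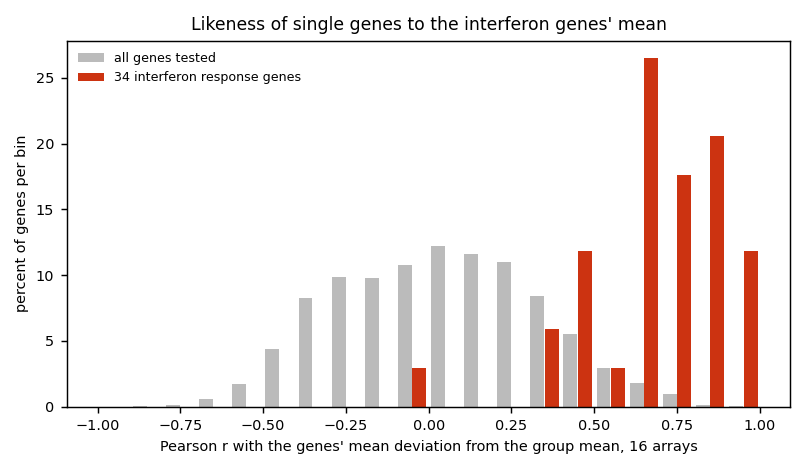
Percent of genes in bins of Pearson r between a gene's deviation from its group mean and the mean deviation of the interferon response genes (16 arrays, the gene itself left out), for all 20055 genes tested (grey) and the 34 interferon response genes (red). The grey bars centre near 0, with a median of 0.038, and the red bars lie mostly between 0.5 and 1, with a median of 0.71.

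The spread between hearts of a group was wider for these genes than for most. The median SD within groups was 0.36 for the 34 genes and 0.24 for all genes tested. In MRflox at 1 month it was 0.46 against 0.17, and in cardioMRKO at 1 month 0.23 against 0.14. At 2 months the values were 0.30 against 0.26 in MRflox and 0.26 against 0.26 in cardioMRKO.

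Among genes with a symbol outside the module, those most like its mean were Oas1f (r = 0.93), Lgals3bp (0.91), Phf11a (0.89), Mast1 (0.89), Fcgr1 (0.88), Cstf3 (0.86), Trim30a (0.85) and Hook2 (0.83). Probes without a symbol were not ranked. Oas1f is a further oligoadenylate synthetase of the Oas1a family, whose probes may share signal with its copies. Fcgr1, the high-affinity receptor for IgG, is also on the macrophage marker list. All 10 macrophage markers were above background on all 16 arrays, and their median r with the module was 0.51, from −0.13 to 0.88. The mean of that list was 0.90 in MRflox replicate 1 at 1 month and 1.31 to 1.46 in the other 3 hearts of the group, and 1.33 to 1.39 in cardioMRKO at 1 month, where replicate 4 was the lowest for the interferon genes. At 2 months it was 1.11 to 1.49 in MRflox and 0.92 to 1.29 in cardioMRKO. The part of macrophages in the course of the interferon genes was not tested. The 6 airway markers had a median r of −0.079, from −0.15 to 0.080. Over the other cell type lists the median r ran from −0.033 for endothelial cells to 0.42 for NK cells.

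The first genotype comparison asked whether the interferon genes differed between cardioMRKO and MRflox hearts at 1 month. None of the 34 genes was called by limma at this age, where 0.0947% of all genes were called. At an unadjusted p under 0.05 none of the 34 passed either, against 6.02% of all genes. Their differences ran from −0.84 to 0.12, and 28 of the 34 were below 0, against 45.7% of all genes. The median difference was −0.092, beside 0.018 over all genes. That small shift rested on single hearts: without MRflox replicate 1 it was −0.28 with 32 of 34 below 0, without MRflox replicate 3 it was 0.038 with 14 below 0, and without cardioMRKO replicate 4 it was −0.0016 with 17 below 0. Without the 2 hearts of this age with an airway marker mean above 0 it was −0.12, and with array weights −0.26 with 33 of 34 below 0 and none called.

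Isg15, the ubiquitin-like protein that is joined to other proteins, stood at −0.36, 0.46, 0.76 and −0.01 in MRflox and at 0.05, −0.32, 0.44 and −0.38 in cardioMRKO at 1 month. The groups overlapped, and the difference was −0.27 (SE 0.27, limma adjusted p = 1.00). Ifit3, which stabilises Ifit1 on RNA, was 0.87, 1.27, 1.60 and 0.96 in MRflox and 1.18, 1.11, 1.03 and 0.51 in cardioMRKO, again with overlap. Its difference was −0.22 (SE 0.21). Bst2, the tether that holds budding virus to the cell, differed by −0.19 (SE 0.18), the antiviral nucleotidase Samhd1 by −0.095 (SE 0.096) and Ifi35 by −0.11 (SE 0.096), and none of these passed.

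**Figure D4:**
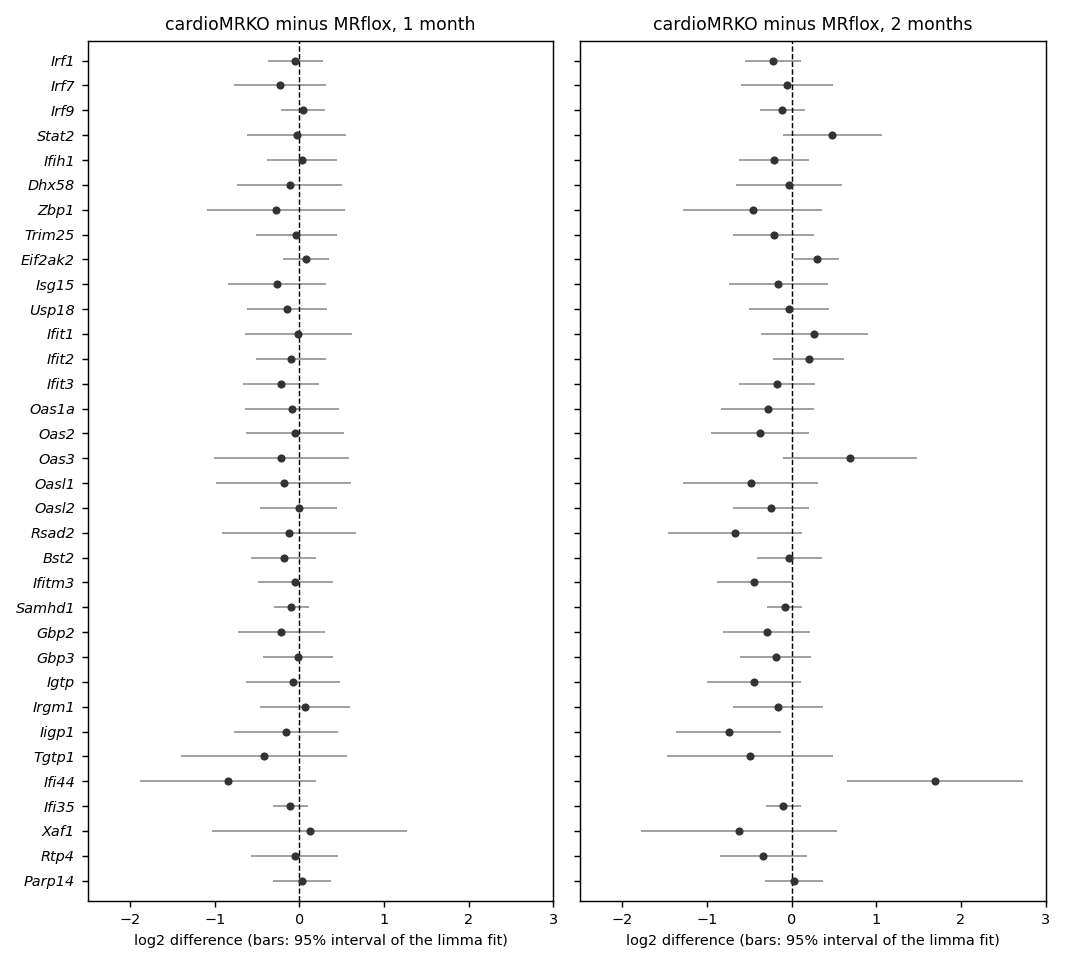
Differences between cardioMRKO and MRflox for the 34 genes at 1 month (left) and 2 months (right), on the log2 scale, with points for the limma estimate and bars for its 95% interval (4 arrays per group). At 1 month the estimates lie between −0.84 and 0.12, and at 2 months 27 of 34 lie below 0 and Ifi44 stands apart at 1.69.

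At 2 months the second genotype comparison again called none of the 34 genes with limma, against 3.53% of all genes (1.55% higher and 1.98% lower). At an unadjusted p under 0.05 there were 3 of the 34, against 18.8% of all genes. Of the 34 differences 27 were below 0, against 62.0% of all genes, and the median was −0.18 beside −0.081 over all genes. The median was −0.072 without MRflox replicate 4, −0.28 without MRflox replicate 2, and 0.0047 without both hearts of low spike-in signal. All 4 cardioMRKO arrays lay above all 4 MRflox arrays for Ifi44 alone (2.87% of all genes) and below them for Oasl1 alone (7.28% of all genes), which is named for that reason.

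Ifi44, an interferon-induced protein found in the cytoplasm, had the largest difference of the 34 genes at both ages, in opposite directions. Its level at 1 month was −2.89, −1.03, −0.43 and −1.48 in MRflox and −3.02, −2.22, −1.50 and −2.45 in cardioMRKO. At 2 months it was −4.33, −3.36, −2.77 and −2.57 in MRflox and −1.85, −1.36, −1.76 and −1.33 in cardioMRKO. The groups overlapped at 1 month and were separate at 2 months, when the MRflox hearts were the low ones.

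The Ifi44 difference between cardioMRKO and MRflox was −0.84 (SE 0.48, limma adjusted p = 0.908) at 1 month and 1.69 (SE 0.48, adjusted p = 0.0708) at 2 months, a 3.22-fold higher level that missed the threshold. It passed in 2 of 18 alternative fits, among them the one with array weights (adjusted p = 0.0410). Over the 18 the difference ran from 0.96 to 1.98, with adjusted p from 0.0103 to 0.168. The difference between the genotype effects at both ages was 2.53 (SE 0.69, adjusted p = 0.122). It passed in 3 of 25 alternative fits. These included array weights (3.06, adjusted p = 0.0161) and the fit without MRflox replicate 1 at 1 month (3.01, adjusted p = 0.0236). Over the 25 the difference between the genotype effects ran from 1.66 to 3.06, with adjusted p from 0.0118 to 0.26. In that comparison none of the 34 genes was called, against 0.748% of all genes, and 1 of the 34 had an unadjusted p under 0.05, against 11.3% of all genes. Its median was −0.12 beside −0.096 over all genes. After Ifi44, the smallest p values were those of Oas3 (0.90, adjusted p = 0.565), Iigp1 (−0.58, 0.639), Ifitm3 (−0.39, 0.672), Stat2 (0.51, 0.676) and Eif2ak2 (0.21, 0.711). The other Oas3 probe gave −0.67, and without MRflox replicate 4 at 2 months the Stat2 value was 0.13.

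**Figure D5:**
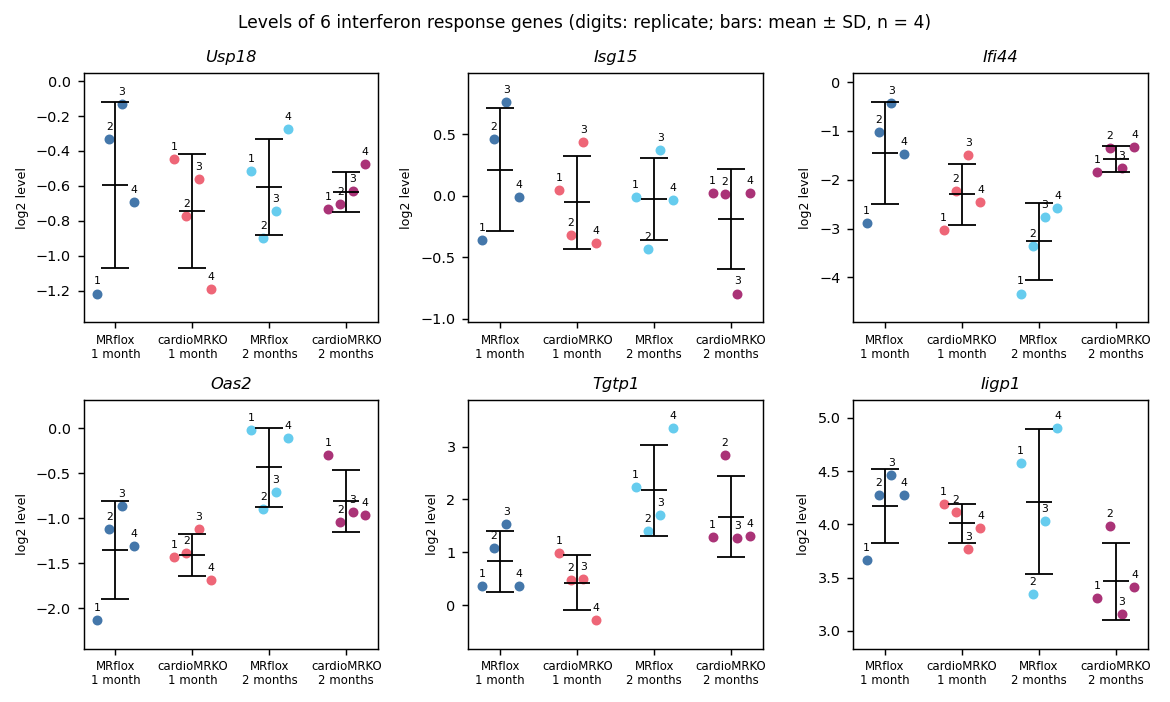
Log2 level of Usp18, Isg15, Ifi44, Oas2, Tgtp1 and Iigp1 on each array (points, digits give the replicate) with the mean ± SD of the 4 arrays of a group, each panel with its own axis. Ifi44 lies between −4.33 and −2.57 in MRflox at 2 months, below all 4 cardioMRKO arrays of that age, and Tgtp1 at 2 months lies above 1.26 on all 8 arrays.

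The inducible GTPases, which act in defence against intracellular pathogens, all had 2-month estimates below 0, against 62.0% of all genes. These ran from −0.16 for Irgm1 to −0.74 for Iigp1, with none of the 6 called. Without both hearts of low spike-in signal, the median over all 34 genes was 0.0047, with 17 below 0. For each of the 6 GTPases MRflox replicate 4 was the highest MRflox array. The other such heart, cardioMRKO replicate 3, was the lowest cardioMRKO array for all but Irgm1. By the means of the remaining arrays, Gbp2, Gbp3, Irgm1 and Tgtp1 lay slightly above 0 and Igtp and Iigp1 below. Gbp3 was then 1.68, 1.30 and 1.52 in MRflox and 1.21, 1.91 and 1.55 in cardioMRKO. Iigp1 was 4.57, 3.34, 4.03 and 4.90 in MRflox and 3.31, 3.99, 3.16 and 3.41 in cardioMRKO at 2 months. The groups overlapped because MRflox replicate 2 was as low as most cardioMRKO hearts. Its difference was −0.74 (SE 0.29, limma adjusted p = 0.177), and −1.03 (adjusted p = 0.0353) without MRflox replicate 2. That was the only 1 of 18 alternative fits in which Iigp1 passed. Over the 18 the difference ran from −1.03 to −0.20, with adjusted p up to 0.773. The mean level of the 6 GTPases was highest on MRflox replicate 4 at 2 months, at 3.13, a heart of low spike-in signal in which the macrophage list (1.49), the neutrophil list (0.043) and the airway list (5.47) were also at their highest of the 16 arrays. The part of these in the result was not tested.

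Antiviral effectors of other kinds had estimates below 0 as well, in the fit that held both hearts of low spike-in signal. Ifitm3, which blocks entry of virus through endosomes, was 4.16, 4.06, 4.25 and 4.74 in MRflox and 4.07, 3.91, 3.51 and 3.96 in cardioMRKO at 2 months. Most MRflox hearts were higher, with overlap at replicate 2, and the difference was −0.44 (SE 0.21, adjusted p = 0.271 by limma). Rsad2, the enzyme viperin, was 1.57, 1.40, 2.85 and 2.78 in MRflox and 1.12, 1.65, 1.62 and 1.54 in cardioMRKO. The difference was −0.67 (SE 0.37, adjusted p = 0.354), and 2 further Rsad2 probes gave −0.053 and −0.11, so the probes disagreed in size.

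Sensors and synthetases went either way at 2 months. Eif2ak2, the kinase PKR that stops translation on sensing double-stranded RNA, was −0.87, −1.05, −0.83 and −0.51 in MRflox and −0.73, −0.52, −0.26 and −0.58 in cardioMRKO, a difference of 0.29 (SE 0.13, limma adjusted p = 0.225). The groups overlapped through MRflox replicate 4. Oas3 was −5.30, −5.94, −5.39 and −5.44 in MRflox and −5.33, −5.15, −3.61 and −5.23 in cardioMRKO, where replicate 3 stood apart. Its difference was 0.69 (SE 0.37, adjusted p = 0.340), but −0.041 with normexp background correction, and its other probe gave −1.05, so no direction can be given for Oas3. Oasl1 was −1.82, −2.22, −2.06 and −1.63 in MRflox and −2.49, −2.40, −2.47 and −2.30 in cardioMRKO. The Oasl1 groups did not overlap, and the difference was −0.48 (SE 0.37, adjusted p = 0.510).

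Age was compared next within each genotype, using the same arrays as the genotype comparisons. Between 1 and 2 months in MRflox 3 of the 34 genes were called, against 22.7% of all genes (16.7% higher and 5.91% lower). Ifi44 fell and Oas2 and Tgtp1 rose, and these 3 were also the only ones at an unadjusted p under 0.05, against 34.5% of all genes. The median difference was 0.0020 beside 0.073 over all genes. For none of the 34 did the hearts of both ages separate, whereas all older hearts were higher for 19.9% and lower for 8.09% of all genes. In cardioMRKO none of the 34 was called by limma, against 10.2% of all genes, with 5 of the 34 at an unadjusted p under 0.05 against 25.0% of all genes. The median was −0.038 there, beside 0.00084.

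Ifi44 fell by 1.80 (SE 0.48, limma adjusted p = 0.0152) in MRflox with age, a 3.49-fold lower level, although MRflox replicate 1 at 1 month overlapped the older hearts. The call was lost without MRflox replicate 3 at 1 month (adjusted p = 0.0542) and in a fit of these 8 arrays alone (adjusted p = 0.0631). In cardioMRKO the mean level of Ifi44 was −2.30 ± 0.63 (SD, n = 4) at 1 month and −1.57 ± 0.27 at 2 months.

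Oas2, a synthetase like Oas3, was −2.13, −1.13, −0.87 and −1.31 in MRflox at 1 month and −0.026, −0.90, −0.71 and −0.11 at 2 months. The older hearts were higher but for an overlap between replicate 3 at 1 month and replicate 2 at 2 months, and Oas2 rose by 0.92 (SE 0.27, limma adjusted p = 0.0241). In cardioMRKO it was −1.43, −1.39, −1.12 and −1.69 at 1 month and −0.30, −1.05, −0.93 and −0.96 at 2 months, with every older heart higher, a difference of 0.60 (SE 0.27, adjusted p = 0.188). The call in MRflox was lost without any 1 of MRflox replicate 1 at 1 month, replicate 1 at 2 months or replicate 4 at 2 months (adjusted p = 0.0654, 0.0726 and 0.0660). It was also lost in the fit of the 8 arrays alone (adjusted p = 0.0776), without both hearts of low spike-in signal (0.0657) and with array weights (0.136), where the difference was 0.50. With array weights 3 of the 34 genes were called with age in MRflox, all of them lower and none higher.

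Tgtp1, a GTPase of the same family as Irgm1, was 0.37, 1.07, 1.54 and 0.35 in MRflox at 1 month and 2.23, 1.40, 1.70 and 3.35 at 2 months. The groups overlapped only between replicate 3 at 1 month and replicate 2 at 2 months. Tgtp1 rose by 1.34 (SE 0.46, limma adjusted p = 0.0487), at the edge of the threshold, and passed in 6 of 18 alternative fits, with adjusted p from 0.0207 to 0.265. Near-identical copies of this gene exist, so its signal may come from more than 1 gene. In cardioMRKO it was 0.98, 0.48, 0.49 and −0.28 at 1 month and 1.29, 2.84, 1.27 and 1.31 at 2 months, with every older heart higher. That difference was 1.26 (SE 0.46, adjusted p = 0.0987).

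In MRflox the next genes by p were Stat2 (−0.55, SE 0.27), Trim25 (0.38, SE 0.22) and Ifit2 (−0.33, SE 0.19), none of them called. Stat2 differed by −0.17 without MRflox replicate 4 at 2 months, and Trim25 by 0.14 without MRflox replicate 1 at 1 month. A second Ifit2 probe gave −1.06. In cardioMRKO 3 of the 34 genes, Oas2, Oas3 and Tgtp1, had all older hearts above all younger ones, against 9.15% of all genes, and none had all older hearts below, against 10.8%. Oas3 differed by 1.03 (SE 0.37, limma adjusted p = 0.0963), but its other probe gave 0.079 and the alternative fits went down to 0.22. It was above background on only 2 of the 4 younger arrays. Xaf1, a binding partner of the apoptosis inhibitor Xiap, differed by −1.27 (SE 0.54, adjusted p = 0.157), with a wide spread of −3.63, −0.27, −1.65 and −1.15 among the older hearts. Irf9, the DNA-binding part of the type I complex, differed by −0.29 (SE 0.12) and Gbp3, a guanylate-binding protein, by −0.39 (SE 0.19), neither of them called. A second Irf9 probe gave −0.043. The airway markers moved with age too, with 5 of 6 called higher in MRflox and 0 of 6 in cardioMRKO (limma), and their part in these differences was not tested.

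The other genes of the pathway were read from lists of interferons, receptors and kinases, upstream sensors, antigen presentation genes and further interferon-stimulated genes. At 1 month limma called none of the 7, 19, 20, 17 and 50 genes tested on these lists between genotypes, against 0.0947% of all genes. An unadjusted p under 0.05 was found for 1, 1, 2, 2 and 0 of them, against 6.02% of all genes. At 2 months 2 were called, both higher in cardioMRKO: 1 of 17 antigen presentation genes and 1 of 50 further stimulated genes, beside 3.53% of all genes called, so these called counts do not set the lists apart. At an unadjusted p under 0.05 there were 4, 1, 0, 2 and 7 genes of the lists, against 18.8% of all genes. With age limma called 4 of the 7 interferons higher in MRflox and 3 in cardioMRKO, against 22.7% and 10.2% of all genes. For the difference between ages 1 of the 7 was called, against 0.748% of all genes. Ifna12 was above background on 0 arrays at 1 month. Among interferons Ifnb1 and Ifng were above background in too few hearts to be tested.

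Ifit3b, a near-identical copy of Ifit3, was −3.87, −3.52, −3.21 and −3.07 in MRflox and −2.48, −2.50, −2.36 and −2.28 in cardioMRKO at 2 months, with the groups apart. At 1 month Ifit3b was −2.73, −2.19, −1.57 and −2.17 in MRflox and −2.62, −2.32, −2.31 and −2.33 in cardioMRKO, so the MRflox hearts of 2 months were the low ones. At 2 months Ifit3b was higher by 1.01 (SE 0.21, limma adjusted p = 0.0205) in cardioMRKO than in MRflox, whereas Ifit3 itself differed by −0.17 (SE 0.21), and the array can split their signal in an unknown way. The call was lost with normexp (difference 0.54, adjusted p = 0.0534), in the fit of the 8 arrays alone (0.0732), and without MRflox replicate 1 or cardioMRKO replicates 3 or 4 (0.0604, 0.0523 and 0.0554). Tap2, a subunit of the peptide transporter of antigen presentation, was −0.66, −0.40, −0.53 and −0.65 in MRflox and −0.30, 0.32, 0.28 and 0.18 in cardioMRKO at 2 months. At 1 month it was −0.07, 0.24, 0.27 and 0.37 in MRflox and −0.23, −0.05, −0.04 and −0.03 in cardioMRKO, so every MRflox heart was lower at 2 months. The 2-month difference of Tap2 between cardioMRKO and MRflox was 0.68 (SE 0.14, limma adjusted p = 0.0156). That call was lost in the fit of the 8 arrays alone (adjusted p = 0.126), without both hearts of low spike-in signal (0.0734), without MRflox replicate 1 (0.0522) and without cardioMRKO replicate 2 (0.0539).

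Of the pathway lists, the genes named at 1 month by their p included the lambda interferon Ifnl3 (−1.14), Ifnz (−0.24), the phosphatase Ptpn11 (−0.29), the class I regulator Nlrc5 (−0.56), the sensor Tlr4 (0.40), Cd74 (−0.61) and H2-Aa (−0.69), and among stimulated genes Ms4a4c (−0.55) and Trim34a (−0.22). None of these passed. At 2 months they were Ifna9 (−0.58, limma adjusted p = 0.0549), Ifnl3 (0.98, adjusted p = 0.103), Ptpn11 (−0.37), Pias1 (−0.19), Irf3 (−0.25) and the adaptor Mavs (−0.19), again with none called. Ifnl3 was above background on 3 and 0 arrays at 1 month and on 1 and 4 arrays at 2 months in MRflox and cardioMRKO, and its 2-month value turned to −0.22 with normexp. Nlrc5 was above background on 3 and 1 arrays at 1 month, in MRflox and cardioMRKO. Its 1-month difference ran from −0.76 to −0.11 over the alternative fits.

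The likeness to the module's array-to-array course differed between these lists. The median r was 0.52 over the 50 further stimulated genes, with 27 of them above 0.5, and 0.50 over the 17 antigen presentation genes, with 9 above 0.5. It was 0.14 over receptors and kinases, 0.083 over upstream sensors and −0.11 over the 7 interferons, of which none was above 0.5. Of the stimulated genes Lgals3bp and Trim30a were followed by the GTPases Ifi47 (0.82) and Irgm2 (0.81), and of the antigen presentation genes Cd74 (0.76) and Psmb8 (0.76) came first. The difference between the lists was not tested.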

How the data were processed

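RNA from 16 whole hearts was hybridised to Agilent single-colour arrays. The deposited values are linear intensities, the processed signal of Agilent Feature Extraction (12.0.0.7 per the file headers, 9.5 per the submitters' processing notes). No header or label used here records the background or detrending steps behind that signal. The deposited series matrix holds the same intensities. The log2 of the processed signal minus the array's 75th percentile over 41174 probes that are not controls was used, with outlier spots missing and spots of a probe averaged. Kept were 27277 probes that in 1 or more groups stood well above background on each of the 4 arrays. They were named through RefSeq accessions, which gave a symbol to 28223 of the 41174 probes, and reduced to the brightest per gene. Of the 20055 genes tested 14953 had a symbol. The others stand under the array's own name for the target and count as genes in the shares over all genes.

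A single fit in limma 3.58.1 (R 4.3.3) held all 16 arrays with 12 residual degrees of freedom, and its two-sided p-values were adjusted by Benjamini-Hochberg over 20055 genes. The script was tested on simulated data. The series' design text gives 4 mice per group. Genes were named with differences where called or, below 6 calls, by the 6 smallest p, with 2 to 4 per pathway list. Up to 8 most like genes with a symbol outside the module were named too. Members and lists were chosen with earlier results of these data known. Alternatives were background correction (normexp, offset 50, on median signals), scaling, filter, probe rule, array weights, replicate block and arrays left out. Same-numbered arrays shared only a slide position, so the fit had no block. One gene that the naming rule covers is not reported here.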

Additional observations from a re-analysis of the deposited data

Results flagged for a closer look

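Of 136 sets of 4 arrays (34 genes in 4 groups), 11 held 1 array far from the other 3 by Dixon's criterion, which chance alone passes in about 1 of 20 sets. In cardioMRKO at 1 month, replicate 4 was the low one for Ifit1 (−1.52), Gbp2 (0.80), Irgm1 (1.03) and Xaf1 (−1.27), the heart with the lowest module mean of its group, and replicate 3 the high one for Rsad2 (2.48). In MRflox at 2 months Stat2 was low in replicate 4 (−2.31), a heart of low spike-in signal. In cardioMRKO at 2 months, replicate 3, the other heart of low spike-in signal, was low for Isg15 (−0.80) and Bst2 (2.22) and high for Oas3 (−3.61). In the same group Oas2 was high in replicate 1 (−0.30) and Tgtp1 in replicate 2 (2.84).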

How the results depend on the processing

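Of 199 recomputed counts and medians of the module, 184 stayed within 1.5 times the reported count or within the SD between hearts of the reported median. The medians lay near 0, and 24 of 98 recomputed ones had the other sign, among them those of the 2-month genotype comparison with array weights (0.017) and without the hearts of low spike-in signal (0.0047). With array weights 1 gene was called at 2 months between genotypes, 1 for the difference between ages and 1 with age in cardioMRKO, and the medians became 0.25 for the difference between ages and −0.27 with age in MRflox. With the replicate block 1 gene was called at 2 months and 1 for the difference between ages, Ifi44 in both (limma adjusted p = 0.0103 and 0.0118), Ifna9 at 2 months was called (0.0149), and Tgtp1 with age in MRflox was lost (0.0812). The numbers do not pair the hearts, as same-numbered arrays correlated from −0.31 to 0.36 in their deviations. Without both hearts of low spike-in signal 1 gene was called with age in MRflox and 1 in cardioMRKO, and the fit of only the groups compared called 0 in MRflox. Leaving out 1 array gave 0 to 1 calls at 2 months, 0 to 1 for the difference between ages and 1 to 3 with age in MRflox. Signs turned for Oas3 at 2 months (−0.041 with normexp, −0.18 with the mean of probes), Ifnl3 at 2 months (−0.22 with normexp), Ptpn11 (0.19) and Irf3 (0.15) at 2 months with the mean of probes, Iigp1 for the difference between ages (0.0997 with array weights) and Nr3c2 at 1 month (0.016 with normexp). The causes were not tested. Over all genes, 19 calls at 1 month became 7 to 187 over the alternatives, 707 at 2 months as few as 96 (only the groups compared), 150 for the difference between ages 60 to 491, and 2055 with age in cardioMRKO 1244 to 5178, so the background shares move with the setting.

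With 4 hearts a group, the median SE of a difference was 0.24 for these genes and 0.17 for all genes, so shifts of the size of the medians could not be called for single genes. Oas3 and Ifnl3 lay near background, and their signs changed with the background correction. The fit without the hearts of airway marker mean above 0 at 1 month was chosen after seeing the data and called 0 genes (limma), with 0 at an unadjusted p under 0.05 in the fit reported.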

Other observations

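Of 17 antigen presentation genes, limma called 4 with age in MRflox (3 higher and 1 lower) and 4 in cardioMRKO (all higher), beside 22.7% and 10.2% of all genes. Class II genes among them, picked after their values were seen, are given here as values. Cd74, the invariant chain, was 1.30, 2.31, 2.30 and 1.81 in MRflox and 1.86, 0.99, 1.39 and 1.04 in cardioMRKO at 1 month. At 2 months it was 3.38, 3.39, 3.11 and 3.65 in MRflox and 2.87, 3.42, 3.16 and 3.80 in cardioMRKO, above every younger heart. Cd74 rose by 1.45 (SE 0.26, limma adjusted p = 0.00138) in MRflox and by 1.99 (adjusted p = 0.00046) in cardioMRKO. H2-Aa rose by 1.26 and 1.67 and H2-Ab1 by 1.27 and 1.46. Ciita, the class II activator, was above background on 2 of 4 cardioMRKO arrays at 1 month and was called higher at 2 months (adjusted p = 0.0184), with no exact fold given. Tap2 fell by 0.76 (adjusted p = 0.00149) with age in MRflox, so the list did not move one way. B cell markers, which carry class II molecules, were called higher with age for 1 of 5 genes in MRflox and 4 of 5 in cardioMRKO, and the mean of their list was −4.51 to −3.14 at 1 month and −3.57 to −0.87 at 2 months, highest in cardioMRKO replicate 4. Their part in the class II result was not tested.

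Of the 50 further interferon-stimulated genes, 10 were called with age in MRflox, 8 higher and 2 lower, and 4 in cardioMRKO, 3 higher and 1 lower, beside 22.7% and 10.2% of all genes, so these counts do not set the list apart. Those that rose include Ifitm1 by 1.70 and 1.09 and Gbp6 by 1.12 and 0.87, in MRflox and cardioMRKO. Ifit3b fell by 1.25 (limma adjusted p = 0.00104) in MRflox, as Ifi44 did, and both were lowest in replicate 1 and highest in replicate 4 of that group at 2 months.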
